A study of Mus musculus with 8 samples.

Results

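The 92 genes described here encode the nuclear subunits of the oxidative phosphorylation complexes and, for complex I, its assembly factors. They were chosen by symbol, taking every mouse gene whose name starts with Nduf, Uqcr, Atp5 or Cox4 to Cox8, together with Sdha, Sdhb, Sdhc, Sdhd, Cyc1 and Cycs, and leaving out pseudogenes. Of 95 such genes with a named probe, 92 were tested among 25797 genes and unnamed probes. The cells were mouse 3T3-L1 preadipocytes held for 1 week in adipogenic medium, which then received supernatant, diluted 2-fold, of human HL-60 leukemia cells treated for 5 days with PMA at 30 nM. Knockdown supernatant came from HL-60 cells with a knockdown of USP2, an enzyme that removes ubiquitin from proteins, and control supernatant from HL-60 cells carrying a mock vector. RNA from the 3T3-L1 cells went on 8 one-colour arrays in 4 groups of 2: knockdown supernatant for 6 h, control supernatant for 6 h, knockdown supernatant for 3 h and control supernatant for 3 h. All 4 groups thus shared adipogenic medium and products of PMA-treated human cells, and no array held 3T3-L1 cells without supernatant. Serum at 10% was listed for all 8 samples. The knockdown was made in the human donors, so no value of these mouse genes checks it, and how it was made is not given in the sources used here.

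Oxidative phosphorylation passes electrons from NADH through complex I, or from succinate through complex II, to ubiquinone, complex III, cytochrome c and complex IV, while protons are pumped across the inner mitochondrial membrane and flow back through complex V, the ATP synthase. Most subunits are encoded in the nucleus and imported, a small set is encoded by mitochondrial DNA, and assembly factors build the complexes without staying in them. In white adipocytes these complexes supply ATP, and in brown adipocytes the proton gradient can be spent as heat.

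The mitochondrially encoded subunits had no named probe and were not analysed here. The tested genes held 38 complex I subunits, 8 complex I assembly factors, 4 complex II subunits, 9 of complex III, cytochrome c, 15 of complex IV and 17 of complex V. All 92 were well above background on all 8 arrays, and none was saturated, so the filter on dim probes selected none of them by group. The members left out as dim were Cox8b, the muscle and brown fat isoform of complex IV subunit 8, Cox8c and Cox7b2. Cox8b and Cox7b2 were each well above background on 1 array, and Cox8c on 0 of 8. Ndufb1, Ndufb4b and Ndufb4c had no named probe.

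Between 50.7% and 55.9% of the 59305 non-control spots of an array were well above background, and replicate arrays correlated at 0.998 with knockdown and 0.997 with control supernatant at 3 h, and at 0.993 with knockdown and 0.988 with control supernatant at 6 h. All arrays lay on 1 slide with the times in separate rows and the supernatants in separate columns, so position on the slide cannot be told apart from time or supernatant. Of 14 adipocyte markers, 6 passed the background flag on every array (Pparg, Cebpa, Fabp4, Fabp5, Lpl and Plin4) and 7 on none, including Adipoq, Cd36, Cfd and Slc2a4. All 7 preadipocyte and fibroblast markers were above background on every array. Of 7 brown or beige fat markers, Dio2 and Cox7a1 were above background on all 8, Cidea, Elovl3 and Cox8b on some, and Ucp1 and Prdm16 on none. The leukocyte marker Ptprc and the macrophage marker Adgre1 were on none, and Itgam, Csf1r, Lyz2 and Cd14 on all 8.

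The first question was whether transcripts for the respiratory complexes differed in cells given supernatant of USP2 knockdown cells. Levels are log2 signals relative to the array's 75th percentile, and a difference passed at a limma adjusted p under 0.05 over all 25797 genes and probes. Of the 92 members, 0 passed at 3 h, where 0.244% of all genes and probes did, 0 passed at 6 h, where 2.28% did, and 0 passed for the average of both times, where 3.11% did. Without adjustment, 1, 6 and 3 of them had a limma p under 0.05, beside 2725, 4982 and 5082 of the 25797. The arrays of the supernatants did not overlap for 27 members at 3 h, against 47.4% of all genes and probes. Of these, 2 were higher with knockdown supernatant, against 20.5%, and 25 lower, against 26.8%. At 6 h they did not overlap for 27 members, against 47.8%, of which 10 were higher, against 26%, and 17 lower, against 21.7%. Over both times, 2 members had all 4 knockdown arrays on one side of all 4 control arrays, against 3.94%. Both were lower with knockdown supernatant, against 1.72%, and 0 were higher, against 2.22%. In RNA of whole cultures, fewer cells of a type and less RNA per cell cannot be told apart.

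The intervals give a range for each gene under this scaling. They are not joint over the 92 genes and do not cover the choice of scaling. The median standard error of the members was 0.076 at 3 h and at 6 h, beside 0.11 over all genes and probes. The 95% interval lay within 0.5 on the log2 scale, a 1.41-fold difference, in either direction for 90 of the 92 members at 3 h, 87 at 6 h and 91 for the average. The median member differed by -0.035 at 3 h, -0.030 at 6 h and -0.038 on average, beside -0.016, 0.00024 and -0.011 over all genes and probes. When arrays were scaled to their median in place of the 75th percentile, the member medians became 0.041, 0.15 and 0.092, so the sign of these medians depended on the scaling. That scaling moved the median of all genes and probes to 0.060 at 3 h and 0.19 at 6 h. Under it 89 of the 92 members were above 0 at 6 h. There 18 members had an unadjusted limma p under 0.05, beside 7887 of the 25797 genes and probes, and 0 members passed. The supernatant differences of the 92 members at 3 h and at 6 h, which share no array, correlated across genes at r = 0.063, beside 0.263 over all genes and probes, and genes are not independent replicates.

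**Figure D1:**
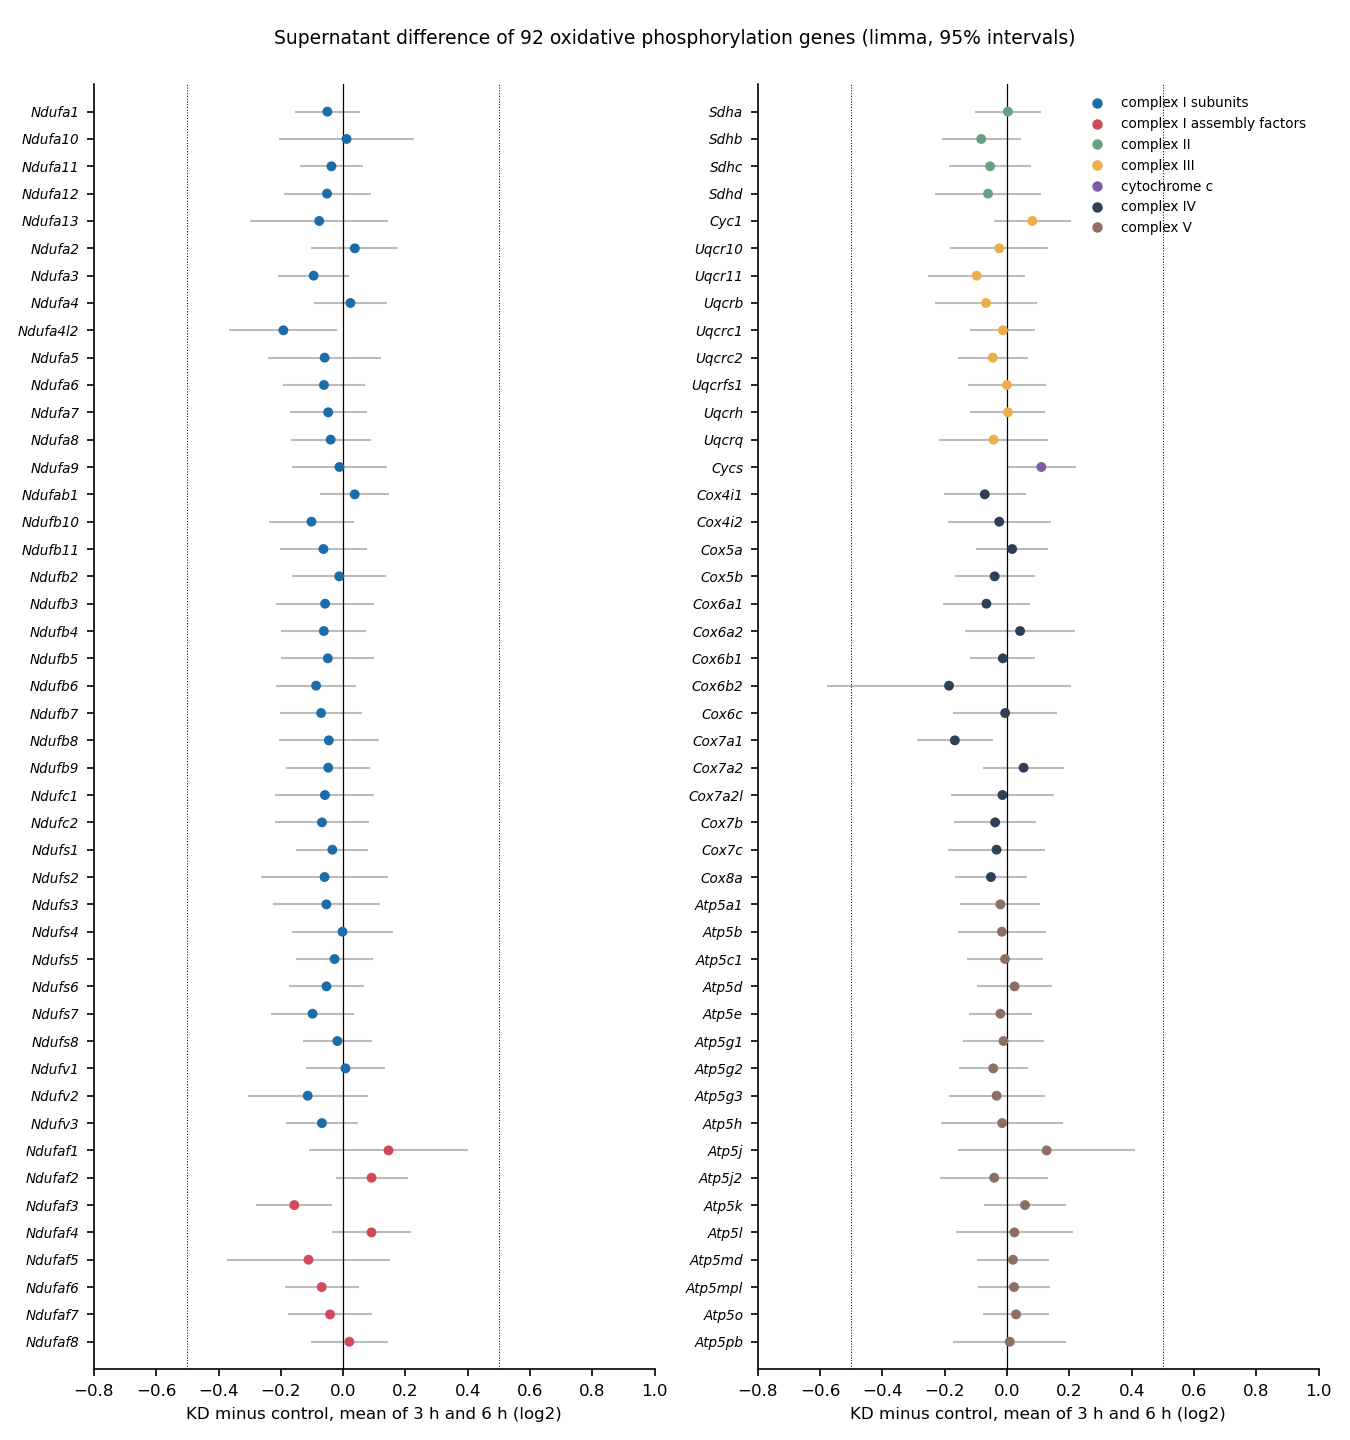
Difference between knockdown (KD) and control supernatant, averaged over 3 h and 6 h, for each of the 92 genes, with limma 95% intervals on a log2 axis and colours for the complexes; dotted lines mark 0.5 in either direction. Intervals of 91 genes lie inside the dotted lines, and that of Cox6b2 reaches beyond them.

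Complex I, the NADH dehydrogenase, is the largest of the complexes. Of its 38 subunits, 36 were below 0 at 3 h, beside 14021 of the 25797 genes and probes. Their median difference was -0.045, beside -0.016 over all, while 27 of 38 were above 0 under array-median scaling. The lowest was Ndufv2, an iron-sulfur subunit of the NADH-oxidising arm, at -0.24 ± 0.11 (SE, 2 arrays per group; limma adjusted p = 0.540). Its levels at 3 h were 4.49 and 4.80 with knockdown supernatant, against 4.92 and 4.84 with control supernatant. Both knockdown arrays lay below both control arrays, and they were farther from each other than the group means. Ndufv1, the flavin-bearing partner of Ndufv2, differed by 0.0073 ± 0.072 at 3 h and by 0.0077 ± 0.072 at 6 h. Ndufs1, the largest subunit of that arm, differed by -0.071 ± 0.066 and by 0.0022 ± 0.066.

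Ndufab1, the mitochondrial acyl carrier protein that also serves as a complex I subunit, moved in opposite directions at the 2 times without passing. At 3 h its levels were -0.75 and -0.79 with knockdown supernatant, against -0.68 and -0.61 with control supernatant. At 6 h they were 0.41 and 0.48 with knockdown supernatant, against 0.26 and 0.22 with control supernatant. The groups did not overlap at either time, with differences of -0.13 ± 0.063 (limma adjusted p = 0.565) and 0.20 ± 0.063 (adjusted p = 0.177). The difference between these 2 effects was 0.33 ± 0.089 and did not pass (adjusted p = 0.453). For the difference of effects 0 of 25797 genes and probes passed in limma, which is 0% of them, while 2267 had an unadjusted p under 0.05, 1 member among them.

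The assembly factors put complex I together from modules. Ndufaf3, which works with Ndufaf4 early in assembly, had levels of 0.58 and 0.57 with knockdown supernatant, against 0.66 and 0.74 with control supernatant, at 6 h. At 3 h it had 0.60 and 0.50 with knockdown supernatant, against 0.78 and 0.70 with control supernatant. All 4 knockdown arrays lay below all 4 control arrays, and the average difference of -0.16 ± 0.049 did not pass (limma adjusted p = 0.167). Ndufaf1, a factor of the early intermediate-assembly complex, showed the highest difference of all members at 6 h, 0.34 ± 0.15 (adjusted p = 0.275). Its levels were 2.22 and 2.14 with knockdown supernatant, against 1.61 and 2.06 with control supernatant, so the groups did not overlap, and the 2 control arrays were farther apart than the group means. Without replicate 2 of the control supernatant at 6 h, the difference of Ndufaf1 was 0.57, and that of Atp5j, coupling factor 6 of the ATP synthase, was 0.51. The only array then left in that group was the lower one for both genes, at 1.61 and 4.80.

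Complex II, the succinate dehydrogenase, showed supernatant differences between -0.12 and -0.013 at 3 h and between -0.063 and 0.018 at 6 h. Sdha, its flavoprotein, was the nearest to 0, at -0.013 ± 0.061 and 0.018 ± 0.061, and Sdhb, its iron-sulfur subunit, the lowest at 3 h, at -0.12 ± 0.073. Within complex III, which hands electrons to cytochrome c, the differences at 3 h ran from -0.14 (Uqcrq, a small subunit) to 0.063 (Cyc1, cytochrome c1). Those at 6 h ran from -0.12 (Uqcr11) to 0.10 (Cyc1). The Rieske iron-sulfur protein Uqcrfs1 differed by -0.015 ± 0.071 and 0.013 ± 0.071, and the core protein Uqcrc1 by 0.041 ± 0.060 and -0.067 ± 0.060. Cycs, cytochrome c itself, had 5.49 and 5.49 with knockdown supernatant at 6 h, against 5.33 and 5.32 with control supernatant. These arrays did not overlap, and the difference of 0.17 ± 0.064 did not pass (limma adjusted p = 0.236).

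Complex IV, cytochrome c oxidase, has isoforms that differ by tissue or oxygen. Cox7a1, the heart and muscle isoform that brown adipocytes also carry, had the smallest adjusted p of all members for the average of both times. Its levels were 0.43 and 0.52 with knockdown supernatant at 6 h, against 0.69 and 0.68 with control supernatant. At 3 h they were 0.56 and 0.44 with knockdown supernatant, against 0.64 and 0.63 with control supernatant. All 4 knockdown arrays were below all 4 control arrays, and the average difference was -0.17 ± 0.049 (limma adjusted p = 0.147). The widely expressed partner Cox7a2 differed by 0.053 ± 0.052 on average. Cox6b2, known as the testis isoform, had the widest interval, from -0.58 to 0.21 around an average of -0.19. The common isoform Cox6b1 differed by -0.014 ± 0.042 on average.

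Ndufa4 and Ndufa4l2 carry complex I names although Ndufa4 is known as a subunit of complex IV, and Ndufa4l2 is its hypoxia-inducible relative. Ndufa4l2 had levels of -2.96 and -2.91 with knockdown supernatant at 6 h, against -2.55 and -2.63 with control supernatant. The knockdown arrays were the lower ones, and the difference of -0.34 ± 0.099 did not pass (limma adjusted p = 0.155). At 3 h it was -0.039 ± 0.099, with overlapping arrays. Ndufa4 differed by -0.024 ± 0.067 at 3 h and 0.070 ± 0.067 at 6 h.

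The ATP synthase subunits had a median supernatant difference of 0.0044 at 3 h and 0.0019 at 6 h, and of 0.080 and 0.19 with arrays scaled to their median. Atp5a1, the alpha chain of the catalytic head, differed by -0.045 ± 0.073 at 3 h and 0.0019 ± 0.073 at 6 h. Atp5b, the beta chain with the catalytic sites, differed by 0.019 ± 0.080 and -0.053 ± 0.080. The highest at 3 h was Atp5k, membrane subunit e, at 0.10 ± 0.076, and at 6 h Atp5j, at 0.27 ± 0.16. Atp5j had 5.29 and 5.34 with knockdown supernatant, against 4.80 and 5.29 with control supernatant, so the groups overlapped and 1 control array was low. The inhibitor of the ATP synthase stood as Atpif1 in the annotation, outside the chosen symbols, and differed by -0.045 ± 0.068 at 3 h and -0.070 ± 0.068 at 6 h.

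The second comparison was between the times within each supernatant. Between 3 h and 6 h, 39.9% of all genes and probes passed with knockdown supernatant and 39.9% with control supernatant, 17.7% and 16.3% of them higher at 6 h and 22.2% and 23.6% lower. Of the 92 members, 9 passed with knockdown supernatant and 9 with control supernatant, in each case 3 higher and 6 lower at 6 h. A difference above 0.5 on the log2 scale in either direction was seen for 3 members with knockdown and 2 with control supernatant, against 32.1% and 33.1% of all genes and probes. The 7 members that passed in both supernatants did so in the same direction, as did 8175 of the 8202 genes and probes that passed in both. Higher at 6 h were Ndufab1, Ndufaf8 and Sdha, and lower were Ndufaf4, Ndufaf2, Ndufaf6 and Ndufa6.

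The median time difference of the members was -0.089 with knockdown and -0.076 with control supernatant, beside -0.11 and -0.074 over all genes and probes. The 2 time differences share no array but share a slide, and correlated over the 92 genes at r = 0.863, beside 0.792 over all genes and probes, with Ndufab1 and Ndufaf4 far from the other genes. The arrays of the 2 times did not overlap for 69 members with knockdown supernatant, against 77.6% of all genes and probes, 18 of them higher at 6 h, against 29.7%, and 51 lower, against 47.8%. With control supernatant they did not overlap for 47 members, against 67.5%, 7 of them higher, against 26.8%, and 40 lower, against 40.6%. The summed signal of the tested adipocyte markers, on the log2 scale, was 7.59 to 7.66 at 6 h against 7.88 to 7.93 at 3 h with knockdown supernatant, and 7.66 to 7.74 against 7.93 to 7.93 with control supernatant. For the macrophage and leukocyte markers it was 5.22 to 5.33 at 6 h against 5.71 to 5.76 at 3 h with knockdown supernatant, and 5.2 to 5.39 against 5.39 to 5.45 with control supernatant. For the brown or beige markers, among them the member Cox7a1, the sum was higher at 6 h in both supernatants. It was 1.04 to 1.22 against 0.76 to 0.87 with knockdown supernatant, and 1.18 to 1.19 against 0.88 to 0.92 with control supernatant. The fibroblast, muscle and endothelial sums were lower at 6 h with knockdown supernatant, and overlapped between the times with control supernatant. The part of such shifts in the time differences was not tested.

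**Figure D2:**
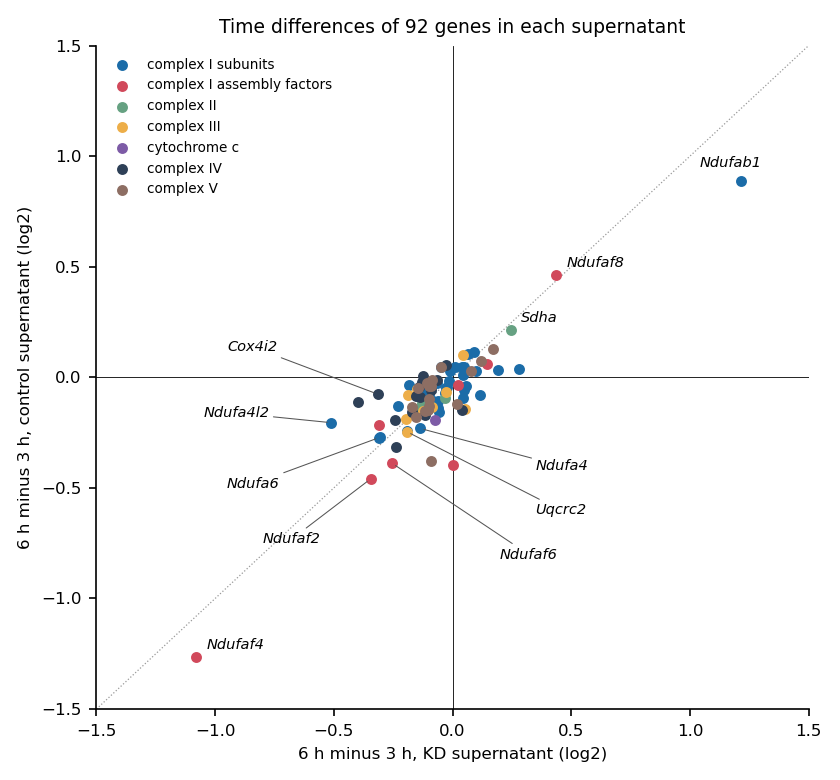
Difference between 6 h and 3 h for each of the 92 genes with knockdown (KD) supernatant on the horizontal axis and control supernatant on the vertical axis, both log2, coloured by complex, with the 11 genes that passed in either supernatant named. Most genes cluster near 0, while Ndufab1 lies at 1.22 and 0.89 and Ndufaf4 at -1.08 and -1.27.

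Ndufab1 changed the most among the members that rose. With knockdown supernatant its levels were 0.41 and 0.48 at 6 h, against -0.75 and -0.79 at 3 h, a rise of 1.22 ± 0.063 on the log2 scale or 2.32-fold (limma adjusted p = 0.000161). With control supernatant they were 0.26 and 0.22 at 6 h, against -0.68 and -0.61 at 3 h, a rise of 0.89 ± 0.063 or 1.85-fold (adjusted p = 0.000311). The times were far apart in both supernatants, and the gap was many times the distance between replicate arrays. No other complex I subunit passed higher.

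Ndufaf4, an assembly factor that joins early complex I intermediates together with Ndufaf3, fell the most of all members. It had 1.95 and 2.01 at 6 h against 3.14 and 2.98 at 3 h with knockdown supernatant, a difference of -1.08 ± 0.073 (limma adjusted p = 0.000284). With control supernatant it had 1.80 and 1.79 at 6 h against 3.08 and 3.05 at 3 h, a difference of -1.27 ± 0.073 (adjusted p = 0.000183). These were 2.12-fold and 2.40-fold decreases with no overlap between the times. A second, dimmer probe of Ndufaf4 was lower at 6 h too, by -0.74 with knockdown and -1.20 with control supernatant. Its partner Ndufaf3 differed by 0.023 ± 0.070 and -0.036 ± 0.070 and did not pass.

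Of the 8 complex I assembly factors, 4 passed in each supernatant, beside 5 of the 84 other members and 39.9% of all genes and probes in each. Ndufaf8, which works with the hydroxylase Ndufaf5 on a core subunit, had 0.07 and -0.05 at 6 h against -0.47 and -0.38 at 3 h with knockdown supernatant. With control supernatant it had -0.0017 and 0.0054 at 6 h against -0.47 and -0.45 at 3 h. It rose by 0.44 ± 0.071 and 0.46 ± 0.071 (limma adjusted p = 0.00522 and 0.00400), the 6 h arrays lying above the 3 h arrays in both supernatants. Ndufaf2, a late factor that acts near the end of complex I assembly, had 2.69 and 2.67 at 6 h against 3.06 and 3.00 at 3 h with knockdown supernatant. With control supernatant it had 2.58 and 2.49 at 6 h against 3.03 and 2.96 at 3 h. It fell by 0.35 ± 0.066 and 0.46 ± 0.066 (adjusted p = 0.00939 and 0.00315), and the call with knockdown supernatant was lost without replicate 1 of that supernatant at 3 h (-0.31, adjusted p = 0.0625).

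Ndufaf6, needed for an early membrane part of complex I, had 1.42 and 1.5 at 6 h against 1.74 and 1.69 at 3 h with knockdown supernatant. With control supernatant it had 1.51 and 1.41 at 6 h against 1.84 and 1.86 at 3 h. It fell by 0.25 ± 0.068 and 0.39 ± 0.068 (limma adjusted p = 0.0296 and 0.00644), and the 6 h arrays lay below the 3 h arrays in both. The call with knockdown supernatant was lost when any of 6 of the 8 arrays, all but those of control supernatant at 6 h, was left out (-0.30 to -0.21, adjusted p 0.0585 to 0.142). Ndufaf1 differed by 0.00034 ± 0.15 with knockdown and -0.40 ± 0.15 with control supernatant (adjusted p = 0.0800). Without replicate 2 of control supernatant at 6 h, which left only the lower array of that group, the control difference of Ndufaf1 was -0.62. For the difference between the 2 time effects, 0 of the 8 factors passed, beside 0 of the 25797 genes and probes.

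**Figure D3:**
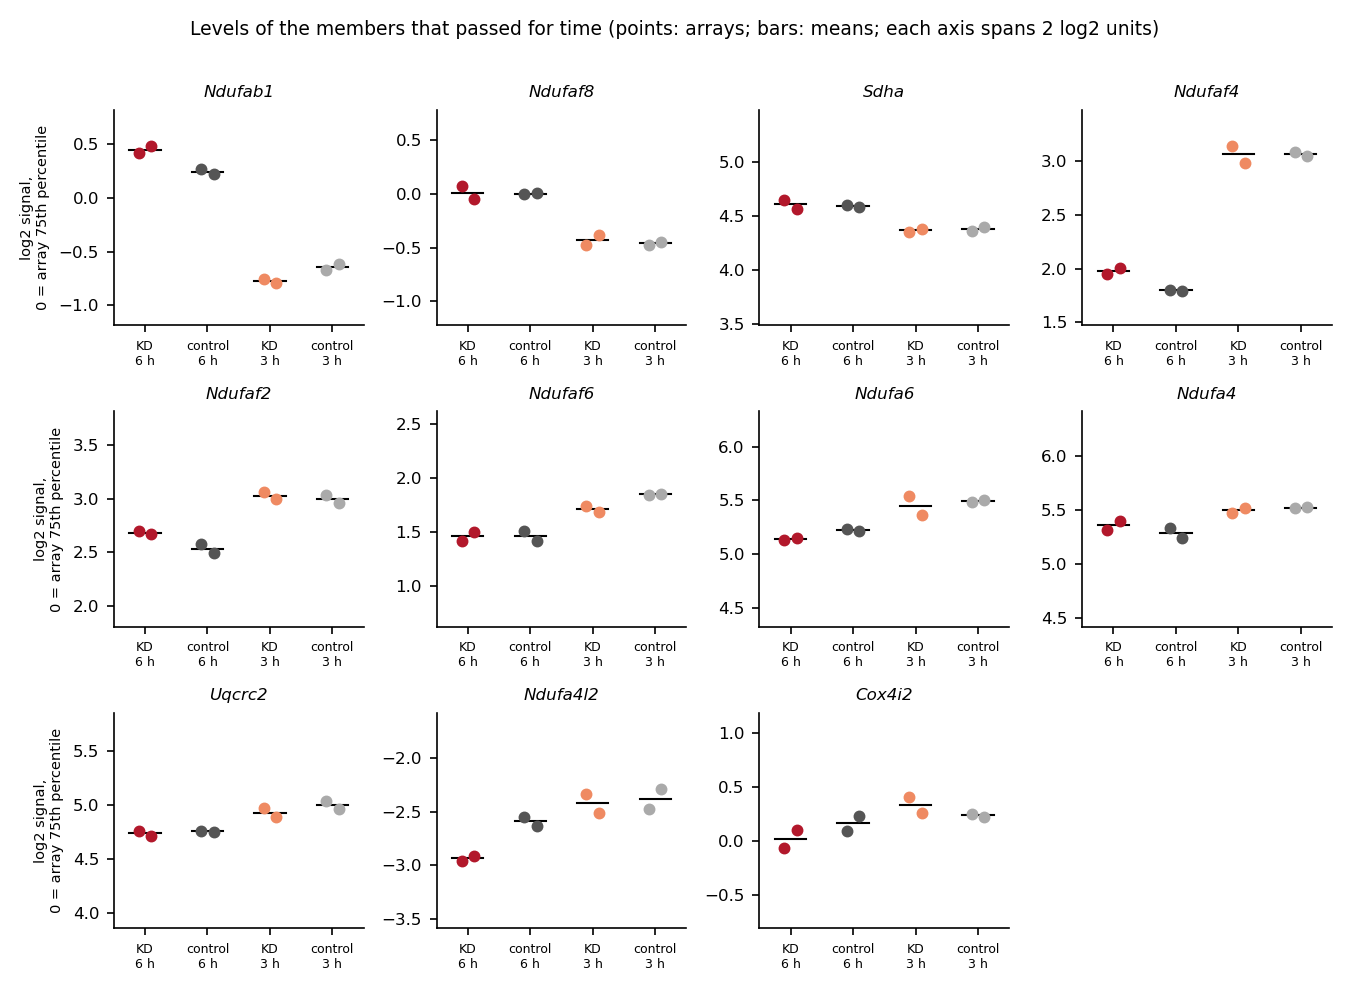
Log2 signal relative to the array's 75th percentile for the 11 genes that passed for time, with 1 point per array and a bar at each group mean, for knockdown (KD) and control supernatant at 6 h and at 3 h; each axis spans 2 log2 units and does not start at a shared level. The time differences are 1.22 and 0.89 for Ndufab1 and -1.08 and -1.27 for Ndufaf4, with knockdown and control supernatant, and between -0.51 and 0.46 for the other 9 genes.

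The RefSeq promoter windows of Ndufab1 and Ndufaf8, which rose most, and of Ndufaf4 and Ndufaf2, the assembly factors that fell most, are given because these 4 genes passed for time in both supernatants. Each window runs from 250 bases before to 50 after the annotated start in GRCm38.p6, and capitals mark matches to 5 motifs searched on both strands. These were a long palindromic NRF1 motif and its shorter core GCGCATGC, CCGGAAG for ETS factors such as GABPA, a YY1 motif and GGGCGGGG for SP1. The long NRF1 motif holds the short one on both strands, so each long match also counts as a short one. Ndufab1 lies at chr7:122101799-122102098 on the minus strand, Ndufaf8 at chr11:120098684-120098983 on the plus strand, Ndufaf4 at chr4:24897833-24898132 on the plus strand and Ndufaf2 at chr13:108158576-108158875 on the minus strand.
Ndufab1: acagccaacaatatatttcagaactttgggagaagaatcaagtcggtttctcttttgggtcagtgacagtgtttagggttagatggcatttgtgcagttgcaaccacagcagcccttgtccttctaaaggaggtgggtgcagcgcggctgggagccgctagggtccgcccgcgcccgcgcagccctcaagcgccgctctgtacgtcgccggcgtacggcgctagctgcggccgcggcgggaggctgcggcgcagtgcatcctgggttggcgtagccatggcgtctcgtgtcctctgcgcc
Ndufaf8: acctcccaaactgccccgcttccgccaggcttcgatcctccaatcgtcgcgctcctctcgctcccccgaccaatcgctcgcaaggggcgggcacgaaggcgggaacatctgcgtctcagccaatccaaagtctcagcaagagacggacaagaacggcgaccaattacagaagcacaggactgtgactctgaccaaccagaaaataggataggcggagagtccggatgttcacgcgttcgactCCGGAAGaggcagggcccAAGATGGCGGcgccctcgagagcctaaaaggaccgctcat
Ndufaf4: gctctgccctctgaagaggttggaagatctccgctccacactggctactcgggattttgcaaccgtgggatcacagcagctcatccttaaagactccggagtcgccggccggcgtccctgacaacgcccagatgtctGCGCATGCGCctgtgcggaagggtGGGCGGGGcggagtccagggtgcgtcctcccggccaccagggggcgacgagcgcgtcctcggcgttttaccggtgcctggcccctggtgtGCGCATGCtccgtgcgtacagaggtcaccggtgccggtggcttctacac
Ndufaf2: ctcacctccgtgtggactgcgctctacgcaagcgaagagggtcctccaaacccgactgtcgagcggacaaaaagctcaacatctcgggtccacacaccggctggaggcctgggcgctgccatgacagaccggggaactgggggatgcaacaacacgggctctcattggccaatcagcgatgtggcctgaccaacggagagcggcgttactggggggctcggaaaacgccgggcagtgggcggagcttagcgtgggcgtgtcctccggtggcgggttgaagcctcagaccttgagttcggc
The Ndufaf4 window held the long NRF1 motif, a second copy of the short one and an SP1 motif. That of Ndufaf8 held an ETS and a YY1 motif, and those of Ndufab1 and Ndufaf2 held none of the 5. Of the 11 members that passed for time, 7 had a RefSeq window. Of 80 windows of 75 members, 8.75% held the long NRF1 motif, 16.2% the short one, 23.8% the ETS motif, 7.5% the YY1 motif and 18.8% the SP1 motif. Over all 32851 windows of that length these shares were 0.971%, 2.71%, 8.86%, 0.852% and 17.6%. A match describes letters in a window and no binding was measured.

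Among complex I subunits proper, Ndufa6, an accessory subunit of the LYR family that binds the acyl carrier protein, was lower at 6 h in both supernatants. Its levels were 5.13 and 5.15 at 6 h against 5.54 and 5.36 at 3 h with knockdown supernatant, and 5.23 and 5.21 against 5.48 and 5.51 with control supernatant. The differences were -0.31 ± 0.075 and -0.27 ± 0.075 (limma adjusted p = 0.0223 and 0.0333). Leaving out replicate 1 of knockdown supernatant at 3 h, or either of its arrays at 6 h, lost the call with knockdown supernatant (-0.32 to -0.22, adjusted p 0.0788 to 0.105). Leaving out any array but the 2 of knockdown supernatant at 3 h lost the call with control supernatant (-0.28 to -0.26, adjusted p 0.0601 to 0.132). Ndufs4, a subunit of the electron-accepting arm, differed by -0.19 ± 0.093 and -0.24 ± 0.093, and passed with control supernatant without its 6 h replicate 2 (-0.34, adjusted p = 0.0438). Ndufv2 differed by 0.28 ± 0.11 with knockdown supernatant (adjusted p = 0.0943) and 0.037 ± 0.11 with control supernatant, and passed with knockdown supernatant without its 3 h replicate 2 (0.44, adjusted p = 0.0225).

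Sdha was the only complex II subunit to pass. It had 4.65 and 4.57 at 6 h against 4.36 and 4.38 at 3 h with knockdown supernatant, and 4.61 and 4.58 against 4.37 and 4.40 with control supernatant. The 6 h arrays were higher in both supernatants, by 0.24 ± 0.061 and 0.21 ± 0.061 (limma adjusted p = 0.0238 and 0.0367). Array-median scaling left 0.15 with knockdown and 0.013 with control supernatant, and neither passed. Leaving out any 1 of the 8 arrays lost the call with control supernatant (adjusted p 0.0535 to 0.155), and leaving out either knockdown array at 3 h or replicate 1 at 6 h lost that with knockdown supernatant (adjusted p 0.0907 to 0.116). The differences of Sdhb, Sdhc and the membrane anchor Sdhd lay between -0.15 and -0.030 with knockdown supernatant and between -0.14 and -0.096 with control supernatant. None of these 3 passed, except Sdhd with control supernatant when replicate 1 of control supernatant at 6 h was left out (-0.27, adjusted p = 0.0407).

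In complex III, 8 of 9 members were below 0 with control supernatant and 7 of 9 with knockdown supernatant, beside 15040 and 15651 of the 25797 genes and probes. Uqcrc2, a core protein of the matrix side, passed with control supernatant, where it had 4.76 and 4.75 at 6 h against 5.04 and 4.97 at 3 h (-0.25 ± 0.065, limma adjusted p = 0.0280). With knockdown supernatant it had 4.76 and 4.72 at 6 h against 4.97 and 4.89 at 3 h (-0.19 ± 0.065, adjusted p = 0.0613). The arrays did not overlap in either supernatant, and the difference of the 2 effects was 0.054 ± 0.091. Leaving out any array but the 2 of knockdown supernatant at 3 h lost the control call (-0.28 to -0.21, adjusted p 0.0509 to 0.141). Uqcrh, the acidic hinge protein, had similar values, -0.20 ± 0.069 and -0.19 ± 0.069, without passing (adjusted p = 0.0705 and 0.0795). Cycs differed by -0.076 ± 0.064 with knockdown and -0.19 ± 0.064 with control supernatant (adjusted p = 0.385 and 0.0601).

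Complex IV members lay below 0 in 14 of 15 cases with knockdown and 13 of 15 with control supernatant, beside 15651 and 15040 of the 25797 genes and probes. Their medians were -0.14 and -0.082, beside -0.11 and -0.074 over all genes and probes. Cox4i2, the lung and hypoxia isoform of subunit 4, was the only one to pass, with knockdown supernatant. It had -0.06 and 0.10 at 6 h against 0.41 and 0.26 at 3 h with knockdown supernatant, and 0.09 and 0.23 against 0.25 and 0.22 with control supernatant. The times overlapped with control supernatant only, with differences of -0.32 ± 0.094 (limma adjusted p = 0.0431) and -0.076 ± 0.094 (adjusted p = 0.575), while the difference of the 2 effects, -0.24 ± 0.13, did not pass (adjusted p = 0.645). Leaving out any array but those of control supernatant at 6 h lost the call (-0.40 to -0.24, adjusted p 0.0552 to 0.199). Cox4i1, the common isoform of that subunit, differed by -0.065 ± 0.075 and -0.014 ± 0.075.

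The muscle isoform Cox6a2 differed by -0.24 ± 0.10 with knockdown and -0.31 ± 0.10 with control supernatant (limma adjusted p = 0.110 and 0.0532), and the common Cox6a1 by -0.14 ± 0.079 and -0.091 ± 0.079. Leaving out replicate 2 of control supernatant at 6 h brought Cox6a2 past the threshold with control supernatant (-0.44, adjusted p = 0.0119), and leaving out either array of that group did so with knockdown supernatant (adjusted p = 0.0362). Cox7a2l, known as a factor that joins complexes III and IV in supercomplexes, differed by -0.24 ± 0.095 and -0.19 ± 0.095 (adjusted p = 0.0918 and 0.166). It passed with knockdown supernatant when either control array at 6 h was left out (adjusted p = 0.0324) and with control supernatant without replicate 1 of that group (-0.31, adjusted p = 0.0314). Cox6b1 differed by -0.12 ± 0.060 and -0.17 ± 0.060, and Cox6b2 by -0.40 ± 0.22 and -0.11 ± 0.22, without passing. Of the pair Cox8a and Cox8b, Cox8a differed by -0.15 ± 0.066 and -0.082 ± 0.066, and Cox8b was too dim to test.

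Ndufa4 and its relative Ndufa4l2 were each called lower in 1 supernatant. Ndufa4 had 5.32 and 5.40 at 6 h against 5.47 and 5.52 at 3 h with knockdown supernatant, and 5.34 and 5.24 against 5.51 and 5.52 with control supernatant. Its differences were -0.14 ± 0.067 (limma adjusted p = 0.159) and -0.23 ± 0.067 (adjusted p = 0.0393), and the control call was lost without any array other than replicate 1 of control supernatant at 6 h (-0.24 to -0.18, adjusted p 0.0581 to 0.144). Ndufa4l2 had -2.96 and -2.91 at 6 h against -2.33 and -2.52 at 3 h with knockdown supernatant, and -2.55 and -2.63 against -2.48 and -2.29 with control supernatant. The times did not overlap in either supernatant, with differences of -0.51 ± 0.099 (adjusted p = 0.00983) and -0.21 ± 0.099 (adjusted p = 0.160). The knockdown call was lost without replicate 1 of knockdown supernatant at 3 h or at 6 h (-0.48 to -0.42, adjusted p 0.0528 to 0.0577). The differences of effects, -0.31 ± 0.14 for Ndufa4l2 and 0.094 ± 0.095 for Ndufa4, did not pass (adjusted p = 0.603 and 0.767).

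No ATP synthase member passed for time in either supernatant. Their median differences were -0.099 with knockdown and -0.049 with control supernatant. Atp5c1, the gamma chain that turns inside the catalytic head, was the highest in both, at 0.17 ± 0.070 and 0.13 ± 0.070 (limma adjusted p = 0.108 and 0.204). The lowest were Atp5pb, the stator subunit b, at -0.17 ± 0.10 with knockdown supernatant, and Atp5j, at -0.38 ± 0.16 with control supernatant. The Atp5j value rested on 1 low control array at 6 h, and without the other one, replicate 2, it was -0.62. The smallest adjusted p with control supernatant was that of Atp5md, a small membrane subunit, at -0.18 ± 0.067 (adjusted p = 0.0836). Atp5a1 differed by 0.076 ± 0.073 and 0.029 ± 0.073, and Atp5b by -0.086 ± 0.080 and -0.014 ± 0.080.

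The split of time calls into higher and lower followed the scaling. With the array median in place of the 75th percentile, 2 members were called higher and 12 lower with knockdown supernatant, and 2 higher and 47 lower with control supernatant. Quantile normalization gave 9 higher and 4 lower in each supernatant, and no scaling 2 higher and 1 lower with knockdown and 1 of each with control supernatant. The deposited value table gave 3 higher and 7 lower with knockdown, and 2 higher and 10 lower with control supernatant. Of all genes and probes, 40.8% passed with knockdown and 48% with control supernatant under the array median, and 40.8% and 42.2% under quantile normalization. The shares were 21.3% and 22.2% with no scaling, and 40.3% and 40.6% with the deposited table. Under the array median with control supernatant, 49 of the 92 members thus stood beside 48%. Under quantile normalization the member medians were 0.023 and 0.048, beside -0.080 and -0.061 over all genes and probes. Ndufab1 and Ndufaf4 passed in both supernatants under all 21 alternatives, including these 4, with rises of 1.12 to 1.38 and 0.68 to 0.95 for Ndufab1.

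**Figure D4:**
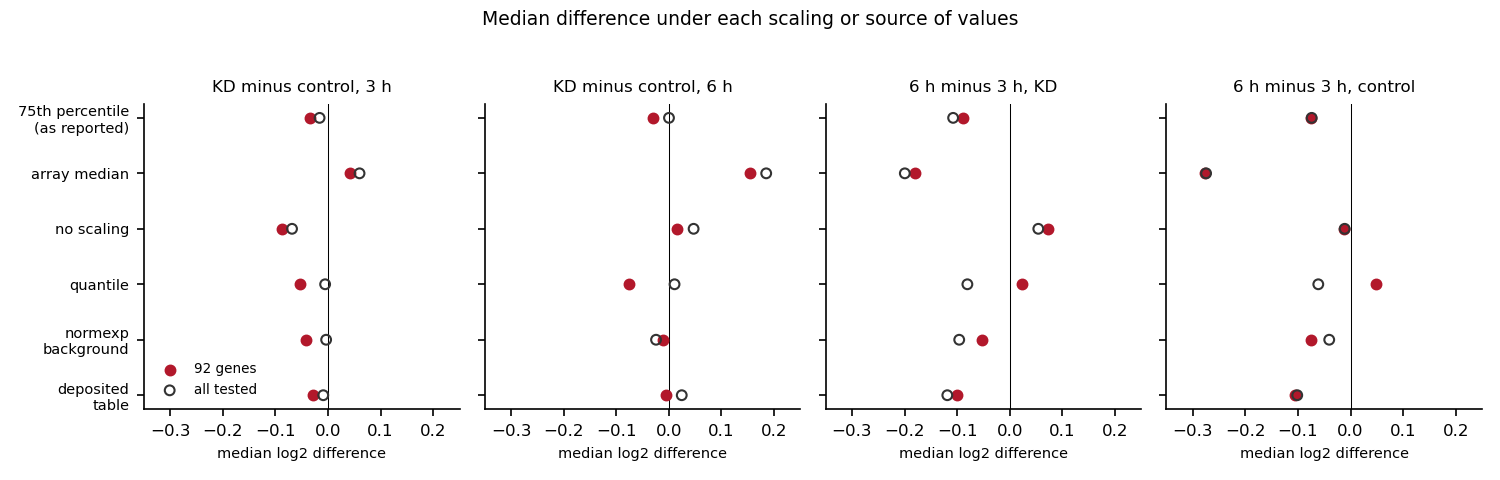
Median log2 difference of the 92 genes (filled) and of all tested genes and probes (open) under 6 ways of scaling or sources of values, for knockdown (KD) minus control supernatant at 3 h and 6 h and for 6 h minus 3 h with each supernatant. The array median shifts both medians together, as for time with control supernatant, where the 92 genes lie at -0.28 and all at -0.27.

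For 24 members more than 1 probe was tested, and their probes differed in the time difference by a median of 0.093 with knockdown and 0.10 with control supernatant. Cycs was the widest, since its dimmest probe gave -0.62 and -1.02 where the brightest gave -0.076 and -0.19, with 1 array missing for the dim probe. For Ndufv3, a flavoprotein-arm subunit with alternative forms, the second probe gave 0.59 and 0.72 and the brightest 0.064 and 0.10. For Atp5c1 the second probe was lower at 6 h, -0.15 and -0.34, where the brightest was higher, 0.17 and 0.13. Averaging the tested probes of each gene called 4 members higher and 10 lower with knockdown supernatant, beside 40.2% of all genes and probes in either direction.

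Genes around the complexes were described from 3 further lists. Of 42 further assembly factors listed, for complexes II to V and the rest of complex I, 39 were tested. With knockdown supernatant 11 passed higher and 6 lower at 6 h, and with control supernatant 8 higher and 10 lower. Of all genes and probes 17.7% passed higher and 22.2% lower with knockdown, and 16.3% higher and 23.6% lower with control supernatant. Between supernatants 0 of the 39 passed at 3 h, 6 h or on average, beside 0.244%, 2.28% and 3.11% of all genes and probes. Leaving out 1 array changed the time counts of this list, and those of all genes and probes changed as well. Taco1, an activator of mitochondrial translation of a complex IV subunit, rose by 1.15 ± 0.12 and 0.86 ± 0.12 (limma adjusted p = 0.00116 and 0.00321). Sco1 and Sco2, which deliver copper to complex IV, fell by 0.88 ± 0.10 and 0.74 ± 0.079 with knockdown and by 1.19 ± 0.10 and 0.79 ± 0.079 with control supernatant. Array-median scaling gave 5 higher and 9 lower with knockdown, and 3 higher and 18 lower with control supernatant. Beside these stood 3449 higher and 7064 lower, and 2646 and 9735, of the 25797 genes and probes. Quantile normalization gave 14 and 5, and 13 and 8, beside 4894 and 5634, and 4705 and 6184, of the 25797.

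Of 17 regulators of mitochondrial biogenesis 15 were tested, with median time differences of -0.41 with knockdown and -0.57 with control supernatant, and 2 passed higher in each while 9 and 10 passed lower. Of all genes and probes 39.9% passed in either direction in each supernatant. Pprc1, a coactivator of the PGC-1 family, had -2.21 and -2.19 at 6 h against -0.41 and -0.20 at 3 h with knockdown supernatant, and -2.71 and -2.48 against -0.19 and -0.19 with control supernatant. It fell by 1.90 ± 0.11 and 2.41 ± 0.11 (limma adjusted p = 0.000194 and 0.000116). Gabpb1, a subunit of the ETS factor whose motif is shown above, fell by 1.63 ± 0.077 and 1.61 ± 0.077, and its partner Gabpa by 0.44 ± 0.071 and 0.64 ± 0.071. Nrf1, the factor of the NRF1 motif, fell by 0.51 ± 0.12 and 1.05 ± 0.12, Yy1 by 0.72 ± 0.066 and 0.61 ± 0.066, and Tfam, which packs and transcribes mitochondrial DNA, by 0.41 ± 0.094 and 0.57 ± 0.094. The Nrf1 call with knockdown supernatant was lost without either 3 h array or replicate 1 at 6 h of that supernatant (-0.55 to -0.43, adjusted p = 0.0726 to 0.104). That of Tfam was lost without replicate 1 at 3 h or at 6 h (-0.36 to -0.33, adjusted p = 0.0906 to 0.101). Both of these calls were also lost with no scaling and with no filter on dim probes, and no scaling ended the calls of Gabpa in both supernatants and that of Tfam with control supernatant.

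Of the 2 mitochondrial transcription factors of the B family, Tfb2m fell by 1.15 ± 0.083 and 1.15 ± 0.083, and Tfb1m rose by 1.14 ± 0.074 and 1.09 ± 0.074. Ppargc1a, the PGC-1 coactivator best known for brown fat and muscle mitochondria, also rose, by 0.94 ± 0.20 and 0.73 ± 0.20 (limma adjusted p = 0.0136 and 0.0326). With knockdown supernatant the call was lost with normexp and when each of the 4 knockdown arrays was left out in turn (0.90 to 0.97, adjusted p = 0.0535 to 0.0678), and was kept under 16 of 21 alternatives. With control supernatant it was kept under 9 of 21, and among the arrays it was lost without control replicate 2 at 3 h, control replicate 1 at 6 h or any 1 knockdown array (0.48 to 0.73, adjusted p = 0.0567 to 0.125). Between supernatants Ppargc1a had -2.53 and -2.46 with knockdown against -1.65 and -2.06 with control supernatant at 6 h, and -3.42 and -3.45 against -2.33 and -2.83 at 3 h. The knockdown arrays were the lower ones at both times, and the average difference of -0.75 ± 0.14 did not pass (limma adjusted p = 0.0579). Without control replicate 2 at 6 h the average difference of Ppargc1a was -0.85. Most of the list lay on the other side, with 12 of the 15 regulators above 0 for that average and 3 below. Their median was 0.068, beside -0.011 over all genes and probes. The highest was Nrip1, at 0.29, which did not pass (limma adjusted p = 0.0534). Of 17 genes of the TCA cycle and pyruvate dehydrogenase, 1 passed higher and 4 lower with knockdown, and 0 higher and 7 lower with control supernatant, beside 39.9% of all genes and probes in either direction in each. Leaving out 1 array changed the counts of this list, and those of all genes and probes changed as well. Quantile normalization gave 2 and 2, and 4 and 2, beside 40.8% and 42.2% of all genes and probes in either direction. Dlst, a subunit of 2-oxoglutarate dehydrogenase, fell by 0.49 ± 0.071 with knockdown and by 0.49 ± 0.071 with control supernatant, and neither call held with no scaling.

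**Figure D5:**
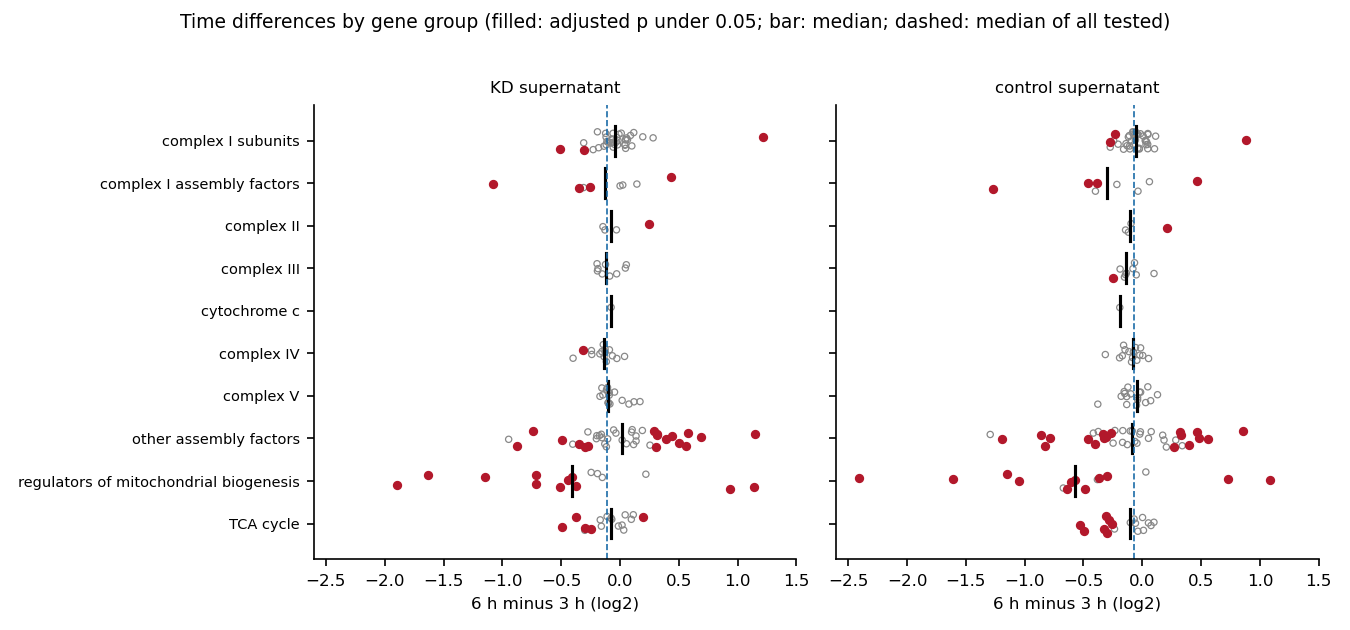
Difference between 6 h and 3 h (log2) for single genes of each complex and of the 3 further lists, with knockdown (KD) supernatant on the left and control supernatant on the right; filled points passed at a limma adjusted p under 0.05, black bars are list medians and the dashed line is the median of all tested genes and probes. Most respiratory subunits lie close to the dashed line, and the regulators reach from -2.41 to 1.14.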

How the data were processed

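One-colour arrays, 8 in all and 2 per group, measured total RNA of 3T3-L1 cells. Per the labels' protocols, 0.1 ug of RNA per sample was labelled with Cy3. The arrays of a group are called biological replicates by the submitters, without a statement on shared supernatant batches. The p-values therefore cover only the spread between these samples, and the number of arrays limits the precision. The scanner files deposited by the authors were made with Feature Extraction 10.7.3.1 (submitters' processing notes). Their processed signal is a linear intensity from which background was subtracted within each array and which was not scaled across arrays, per the file headers. A deposited value table held values that followed log2 of that signal up to a constant per array (method not given in the sources used here), with medians of -4.12 and -4.23 with knockdown and -3.96 and -4.06 with control supernatant at 6 h, and -4.23 and -4.24 with knockdown and -4.15 and -4.18 with control supernatant at 3 h. It was not centred per gene and was used as an alternative.

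The 75th percentile of an array was subtracted from its log2 processed signals. Spots that were controls or carried an outlier flag were dropped, and repeat spots were averaged. RefSeq (GRCm38.p6) named 27235 of 55681 probes by transcript and 13 by symbol, and 28433 had no name here. Probes flagged well above background on both arrays of any group were kept and the brightest was used per gene, which gave 25797 genes and unnamed probes, 13784 of them with a gene name. Group means were compared with limma 3.58.1 (lmFit and eBayes, 4 residual and 1.74 prior degrees of freedom) in R 4.3.3, with Benjamini-Hochberg adjustment over all features. Errors are standard errors of that model. The fit was tested on simulated data. Summed marker levels are log2 of the sum of scaled signals over the tested genes of a list.

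Named were the members that passed, per complex the member with the smallest p and the one with the largest difference, and a set of isoform pairs, core subunits and the inhibitory factor. Ndufs4, Ndufv3 and the genes of the further lists stand outside that rule and were chosen after their values were seen. The members, lists and rules were chosen with earlier results of these data known. The alternatives were background correction by normexp, other scalings, other filters, probe averaging, masking of bright patches, array weights, fewer arrays and a replicate block. Other steps used matplotlib 3.10.9, numpy 2.4.6 and pandas 2.3.3 under Python 3.11.15.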

Additional observations from a re-analysis of the deposited data

How the results depend on the processing

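For the 92 members, 0 passed between the supernatants at 3 h, on average or for the difference of effects under any alternative run. At 6 h the same held except in the fit without replicate 2 of control supernatant at 6 h, which left 1 array in that group. In that fit more of all genes and probes passed as well. With 2 arrays kept per group, the alternatives called 0 to 310 of all genes and probes at 3 h and 0 to 1067 at 6 h. They called 76 to 1213 on average and 0 to 6 for the difference of effects. Where few or none passed among all genes and probes, a count of 0 members says nothing particular about the members. Leaving out 1 array moved the members called for time between 3 and 11 with knockdown and between 5 and 9 with control supernatant. It moved the member medians between -0.061 and -0.010 at 3 h, -0.069 and 0.011 at 6 h, -0.063 and -0.016 on average, -0.032 and 0.039 for the difference of effects, -0.11 and -0.075 for time with knockdown and -0.12 and -0.032 with control supernatant. With 1 array left out, the calls for time among all genes and probes changed as well. The member counts of those fits thus say nothing particular about the members, and each such fit left 1 array in a group. The next counts of members called for time stand beside the share of all genes and probes, in brackets. With knockdown supernatant they numbered 14 with the array median (40.8%), 3 with no scaling (21.3%) and 4 with no filter on dim probes (14.2%). They numbered 14 with probes averaged (40.2%) and 16 with array weights (47.2%). With control supernatant they numbered 49 with the array median (48%), 2 with no scaling (22.2%) and 5 with no filter (14.5%). They numbered 5 with array weights (33.9%) and 5 with only the control arrays (29%). The member medians under the array median were 0.041 at 3 h, 0.15 at 6 h, 0.092 on average, 0.11 for the difference of effects, and -0.18 and -0.28 for time with knockdown and control supernatant. With no scaling they were -0.087 at 3 h, 0.016 at 6 h, 0.099 for the difference of effects, 0.073 for time with knockdown and -0.013 with control supernatant. Quantile normalization gave -0.075 at 6 h and 0.023 and 0.048 for time. The cause of these shifts was not tested. All other alternatives kept the counts within 1.5 times and the medians within the array spread of 0.039. Among all genes and probes, those called at 6 h between supernatants ranged from 128 to 1955 when 1 array was left out. With the replicate number as a block, 0 members passed between supernatants, with medians of -0.035 at 3 h, -0.030 at 6 h, -0.038 on average and -0.0001 for the difference of effects. In that block 8 members passed for time with knockdown (median -0.089) and 7 with control supernatant (median -0.076), beside 39.4% and 38.9% of all genes and probes. Between supernatants 0% of all genes and probes passed in it at 3 h and 0.853% at 6 h. The deviations of arrays with the same number correlated between -0.047 and 0.087. Low correlations do not show whether same-numbered samples were paired, and the submitters make no statement on shared supernatant batches. The fit restricted to the groups compared is the same as that on all arrays for the average and the difference of effects.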
